A study of Homo sapiens with 72 samples.

Results

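The costimulatory and checkpoint ligand genes CD40, CD80, CD86, CD58, CD70, CD274, PDCD1LG2, ICOSLG, TNFRSF14 and TNFSF9 were taken as a list of 10 names among the 20007 protein-coding genes of GENCODE 44 on hg38. They were described by the Cut&Tag peaks at their starts and along their bodies. In Cut&Tag an antibody brings a tagging transposase to the nucleosomes that carry a given histone mark, and the fragments cut there are sequenced. Profiled with it were H3K4me2, H3K4me3 and H3K27me3, in Raji, NALM6 and REH cells that were untreated or had received 1 nM bryostatin overnight (by the labels; the text of the study gives a full day), in triplicate (3 libraries per line, mark and treatment), which gives 54 libraries. Raji is a Burkitt lymphoma cell line that carries Epstein-Barr virus, and NALM6 and REH are acute lymphocytic leukemia cell lines of the pre-B stage. The labels name no transgene or deletion in any line, and no difference between the untreated and treated cells of a line other than bryostatin. Bryostatin is a macrocyclic lactone that activates protein kinase C. Each line stands for 1 tumor, and nothing in the labels says that replicates were separate cultures, so p-values measure only the spread between these libraries.

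H3K4me3 marks the starts of genes that are transcribed or ready to be, H3K4me2 marks those starts and also enhancers, and H3K27me3 is the mark of Polycomb repression. The proteins of these genes sit on the surface of a B cell and are read by T cells. CD80, CD86, ICOSLG, CD274 and PDCD1LG2 belong to the B7 family, of which CD80 and CD86 bind CD28 and CTLA4, ICOSLG binds ICOS, and CD274 (PD-L1) and PDCD1LG2 (PD-L2) bind the inhibitory receptor PD-1. CD70 and TNFSF9 are ligands of the TNF superfamily that engage CD27 and TNFRSF9 on T cells. CD40 and TNFRSF14 are receptors of the TNF receptor superfamily, the first for CD40 ligand and the second (HVEM) for BTLA, CD160 and TNFSF14. CD58 is the adhesion ligand of CD2. On B cells CD40 signaling raises CD80 and CD86, which makes the cell a better partner for T cells.

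The genes lie on 6 chromosomes. CD40 spans chr20:46118271-46129863 on the plus strand, CD80 chr3:119524293-119559614 on the minus strand and CD86 chr3:122055362-122121139 on the plus strand. CD58 spans chr1:116514534-116571039 and CD70 chr19:6583183-6604103, both on the minus strand. CD274 at chr9:5450503-5470566 and PDCD1LG2 at chr9:5510531-5571282 are neighbours on the plus strand. ICOSLG spans chr21:44215382-44241446 on the minus strand, TNFRSF14 chr1:2555639-2565382 and TNFSF9 chr19:6531026-6535924 on the plus strand. The start of another annotated gene, ENSG00000278158, falls in the ICOSLG start window, and that of the antisense gene TNFRSF14-AS1 in the TNFRSF14 window, so peaks there cannot be assigned to 1 gene.

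Promoter sequences from RefSeq (build GRCh38.p14, 250 bases before to 50 after a start) matched 7 of the 10 genes with 8 promoters. CD40, CD70 and PDCD1LG2 had no entry in the table. The 6 shown are those of CD80, CD86 and TNFSF9, which had more H3K4me3 in Raji than in both other lines, and of CD58 and ICOSLG, which had H3K4me3 in at least 4 of 6 libraries of every line, written 5′ to 3′ on the strand of the gene with each CpG dinucleotide in capitals.
CD80, chr3:119559565-119559864, minus strand: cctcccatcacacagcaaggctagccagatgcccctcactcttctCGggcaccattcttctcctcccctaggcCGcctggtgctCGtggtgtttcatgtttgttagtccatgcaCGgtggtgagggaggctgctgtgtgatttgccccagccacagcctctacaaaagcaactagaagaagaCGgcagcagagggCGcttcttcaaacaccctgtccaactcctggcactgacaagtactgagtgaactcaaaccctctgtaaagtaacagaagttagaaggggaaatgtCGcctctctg
CD86 at the 5′ end, chr3:122055112-122055411, plus strand: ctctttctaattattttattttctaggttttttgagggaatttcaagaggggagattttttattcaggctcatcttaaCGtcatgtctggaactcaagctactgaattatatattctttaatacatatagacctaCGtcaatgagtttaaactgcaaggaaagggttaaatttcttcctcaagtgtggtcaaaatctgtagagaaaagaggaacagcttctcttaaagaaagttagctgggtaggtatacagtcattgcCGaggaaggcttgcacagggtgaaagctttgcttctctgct
CD86 at the second start, chr3:122077534-122077833, plus strand: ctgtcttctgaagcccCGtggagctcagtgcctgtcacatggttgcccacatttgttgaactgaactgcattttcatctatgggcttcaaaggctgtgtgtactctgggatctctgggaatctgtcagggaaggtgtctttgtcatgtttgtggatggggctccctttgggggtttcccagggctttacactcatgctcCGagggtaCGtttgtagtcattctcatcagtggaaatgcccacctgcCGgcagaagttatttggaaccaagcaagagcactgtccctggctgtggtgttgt
TNFSF9, chr19:6530776-6531075, plus strand: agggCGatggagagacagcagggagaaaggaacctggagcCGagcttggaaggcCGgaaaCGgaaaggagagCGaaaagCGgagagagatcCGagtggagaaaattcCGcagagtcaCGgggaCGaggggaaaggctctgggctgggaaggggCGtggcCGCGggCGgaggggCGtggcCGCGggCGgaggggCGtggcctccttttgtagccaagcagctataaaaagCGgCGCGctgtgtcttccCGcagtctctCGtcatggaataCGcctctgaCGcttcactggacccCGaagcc
CD58, chr1:116570977-116571276, minus strand: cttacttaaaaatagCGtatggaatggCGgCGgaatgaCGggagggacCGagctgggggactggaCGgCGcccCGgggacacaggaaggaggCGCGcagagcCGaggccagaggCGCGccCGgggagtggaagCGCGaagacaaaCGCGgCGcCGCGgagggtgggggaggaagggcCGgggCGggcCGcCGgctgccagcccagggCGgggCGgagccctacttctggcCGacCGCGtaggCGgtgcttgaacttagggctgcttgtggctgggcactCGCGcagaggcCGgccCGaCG
ICOSLG, chr21:44240894-44241193, minus strand: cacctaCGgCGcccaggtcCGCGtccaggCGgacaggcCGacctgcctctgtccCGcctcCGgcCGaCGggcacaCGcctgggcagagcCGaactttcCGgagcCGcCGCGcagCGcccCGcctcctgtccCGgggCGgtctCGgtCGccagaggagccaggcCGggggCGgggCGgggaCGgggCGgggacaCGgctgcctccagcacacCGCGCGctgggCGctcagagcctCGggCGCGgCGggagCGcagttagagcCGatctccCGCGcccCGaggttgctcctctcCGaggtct
The CD58 promoter held 36 CpG and the ICOSLG promoter 42, against a median of 14 over the 35116 promoters of the table. The CD80 promoter held 7, the CD86 promoter at the 5′ end 3 and the CD86 promoter at the second start 4. TNFSF9, with 27, was above the median and yet had little H3K4me3 in NALM6 and REH. Of the other matched genes, TNFRSF14 had 12 and CD274 22. The GC share ran from 37.0% at the 5′ end of CD86 to 77.0% at ICOSLG, with a median of 58.7% over all promoters. The AP-1 motif (TGANTCA), the CRE (TGACGTCA) and an NF-kB motif (GGGA and TTCC with any 2 bases between), searched on both strands, were in 0 of the 8 promoters. Of all promoters of this length, 7.71%, 1.85% and 1.61% held them, and no match says only that these letters are not in these windows.

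The deposited files give the peaks that the SEACR caller found in each library at its stringent setting, with the signal summed over each peak. A library without a peak at a gene had no signal above the caller's threshold there, which is not the same as no mark. The start signal of a gene is the sum over the peaks that touch a stretch within 1 kb of any of its annotated starts. It is given as multiples of the median start signal of the genes that had a peak in all 18 libraries of the mark (3572 genes for H3K4me2 and 4360 for H3K4me3). A value of 1 is therefore the level of a typical start that was marked everywhere. A peak counts whole, so a long peak that runs into the window raises the value.

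Several libraries stood apart. The 6 replicate 1 libraries of NALM6 were deposited with another scaling and with short peaks (median 584 to 916 bp), and the depth behind them is unknown. In the other 48 libraries the depth was 5.119 to 47.87 M mapped reads, and peaks per library ranged from 590 to 102183. The third bryostatin replicate of NALM6 for H3K4me3 was the shallowest of its mark, with 5.407 M reads. For H3K27me3, the second untreated replicate of Raji had peaks at 91.9% of the 9890 starts that carried H3K4me3 in all 6 Raji libraries, against 0.374% to 13.4% in the other 5 Raji libraries. Peaks on the Epstein-Barr virus genome were called in all 18 Raji libraries and in 0 of the 36 others. Of 7 B lineage markers, 7 had an H3K4me3 start peak in at least 4 of 6 Raji libraries, and 6 did in either leukemia line. For 5 pre-B markers the counts were 1, 5 and 4, and for 5 mature or germinal centre markers 5, 0 and 1. No T cell, myeloid or erythroid marker reached 4 of 6 libraries for H3K4me3, but CD8A, MPO and CSF1R did for H3K4me2 in REH.

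Raji cells carried H3K4me3 at most of these genes and the pre-B lines at fewer of them, with REH near the share of all genes. In Raji, 9 of the 10 genes had an H3K4me3 start peak in at least 4 of 6 libraries, where 52.7% of all protein-coding genes did. Only PDCD1LG2 was missing. In REH the count was 4 (CD58, CD70, ICOSLG and TNFRSF14) beside 47.9% of all genes, and in NALM6 it was 2 (CD58 and ICOSLG) beside 43.5%. With every library of a mark limited to an equal number of its strongest peaks, the H3K4me3 count was 2 in REH and 1 in NALM6. The share of all genes under that limit was not computed for either H3K4 mark, so those counts have none beside them. For H3K4me2 the lines lay closer together. Raji had 8 of 10 genes with a peak in at least 4 libraries, beside 53.5% of all genes, REH 7 beside 55.7% and NALM6 5 beside 43.4% (3 with an equal number of peaks). Of the 5 genes marked by H3K4me2 in NALM6, CD40, TNFRSF14 and TNFSF9 had H3K4me3 in fewer than 4 libraries, a state held by 6.36% of all genes there. In REH the same held for CD40, CD86 and TNFSF9, beside 9.81% of all genes, and in Raji for none of the 10, beside 2.6%.

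**Figure D1:**
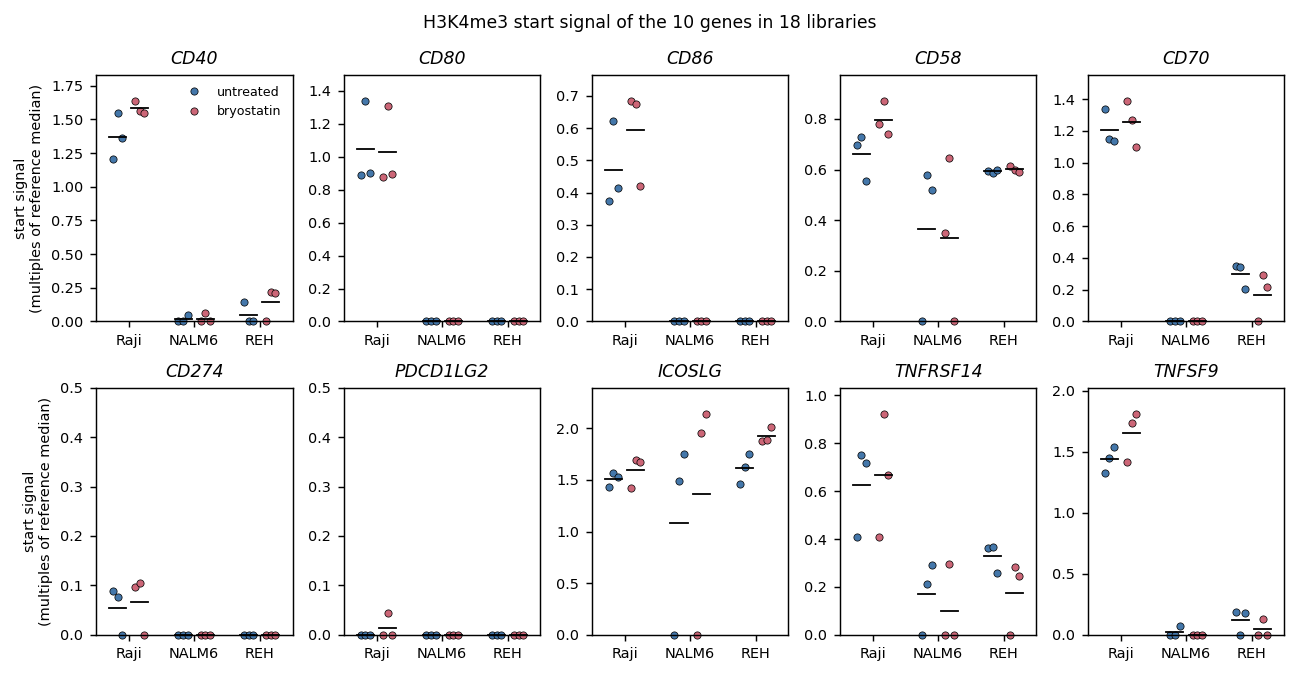
H3K4me3 start signal of each gene (vertical axis, multiples of the median of always-marked starts) in the 3 untreated and 3 bryostatin libraries of each line. Each point is a library and each bar a mean of 3. CD40, CD70 and TNFSF9 lie above 1 in all 6 Raji libraries and at or below 0.349 in the 12 others, CD80 and CD86 are listed at 0 outside Raji, and ICOSLG is high in all 3 lines except in NALM6 replicate 1.

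CD80 and CD86, the ligands of CD28, were marked in Raji. The CD80 H3K4me3 start signal was 0.892, 1.339 and 0.903 in the untreated Raji libraries and 0.878, 1.308 and 0.897 in the treated ones. In all 12 NALM6 and REH libraries CD80 was listed at 0 for H3K4me3 and for H3K4me2. The CD80 H3K4me2 start signal in Raji was 1.327, 0.856 and 3.044 untreated and 3.378, 3.424 and 1.254 treated, and the called bases behind it summed to 1230 to 17750 bp per library, with the 3 highest values in the 3 libraries with most bases. Over the whole gene with 3 kb flanks the H3K4me2 signal was closer among libraries, at 3.217, 2.377 and 3.496 untreated and 3.636, 3.424 and 3.042 treated. The pattern of a start peak in all 6 Raji libraries and in none of the other 12 was rare, with 0.86% of all genes for H3K4me2 and 1.08% for H3K4me3. CD80 showed it for both marks and CD86 for H3K4me3.

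CD86 has starts at its 5′ end, 22.5 kb downstream and 36.2 kb downstream, and the marks at them differed between lines. Its H3K4me3 start signal in Raji was 0.373, 0.622 and 0.415 untreated and 0.684, 0.676 and 0.421 treated. H3K4me3 peaks lay at the 5′ end (0.126 to 0.353) and at the second start (0.140 to 0.376) in all 6 Raji libraries, and at the third start in none. H3K4me2 in Raji was strongest at the second start, with 0.720 to 2.12 in all 6 libraries, while the 5′ end had a peak in 3 libraries and the third start in 5. In REH the H3K4me2 peak of CD86 was at the third start alone, where the gene's signal was 0.287, 0.234 and 0.217 untreated and 0.272, 0.301 and 0 treated. No REH library had H3K4me3 at any CD86 start, and NALM6 had neither mark at any of them. The start windows of both CD86 sequences printed above thus held H3K4me3 in Raji and no peak of either H3K4 mark in REH.

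**Figure D2:**
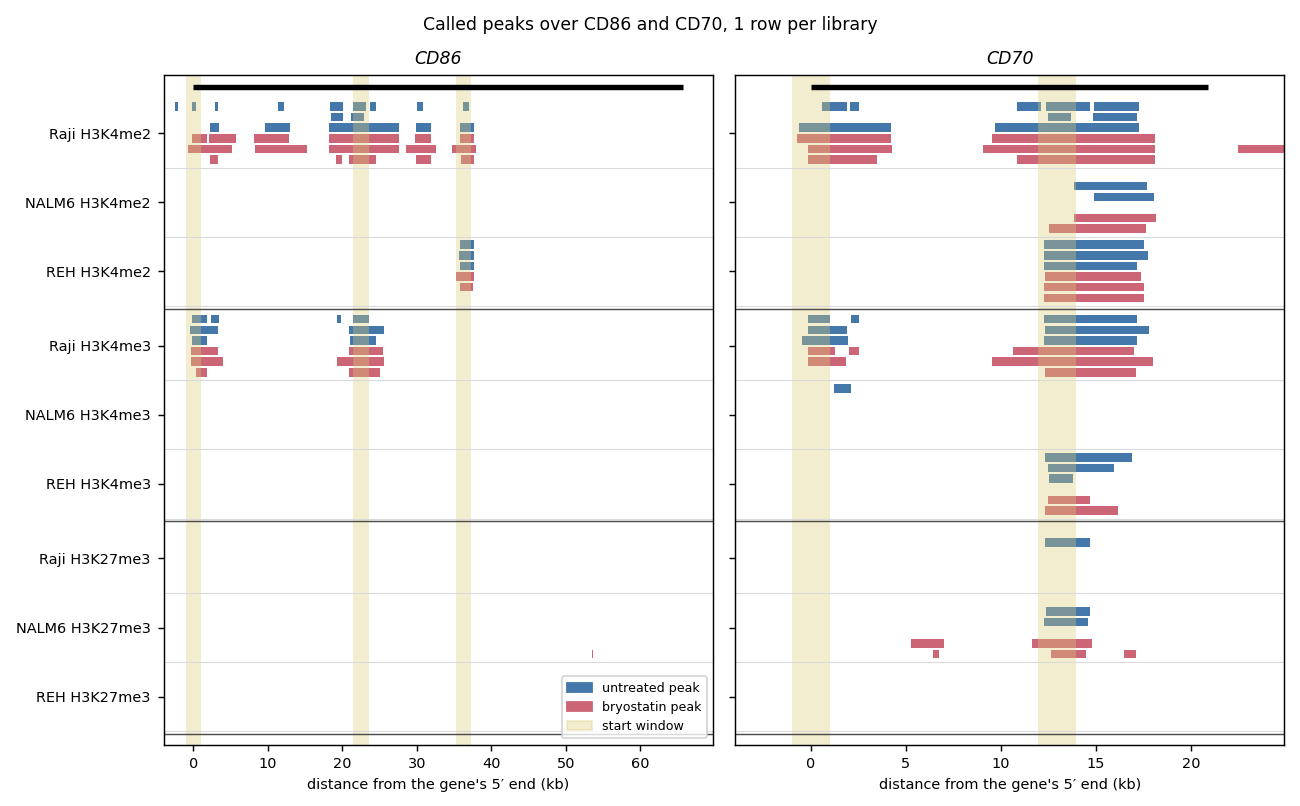
Called peaks over CD86 and CD70, 1 row per library in the order untreated 1 to 3 and bryostatin 1 to 3, against the distance from the 5′ end of the gene in kb. Shaded bands are the windows within 1 kb of annotated starts and the black bar is the gene. In REH, CD86 has H3K4me2 at the third start alone, and CD70 has both H3K4 marks at the start 13 kb downstream and none at the 5′ end.

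CD40, the receptor that T cell CD40 ligand engages, had a strong H3K4me3 start in Raji. Its signal there was 1.207, 1.548 and 1.362 untreated and 1.636, 1.564 and 1.544 treated. In REH it was 0.143, 0 and 0 untreated and 0, 0.216 and 0.213 treated, and in NALM6 a peak was called in 2 of 6 libraries, at 0.049 and 0.065. The lowest Raji library was thus far above the highest of the other lines. H3K4me2 at CD40 was present in all lines. It was 0.772, 0.968 and 0.978 in untreated Raji, 0.618, 0.614 and 0.624 in untreated REH, and 0.451, 0.374 and 0.291 in untreated NALM6. NALM6 lay lowest, and in the limma fit described below Raji against REH did not pass (log2 difference 0.48, adjusted p = 0.606).

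CD70 and TNFSF9, the TNF superfamily ligands, differed between lines in like fashion for H3K4me3. The TNFSF9 signal in Raji was 1.323, 1.452 and 1.535 untreated and 1.416, 1.738 and 1.806 treated. A TNFSF9 peak was called in 3 of 6 REH libraries, at no more than 0.187, and in 1 of 6 NALM6 libraries, at 0.074. Its H3K4me2 start was called in all 18 libraries, with medians of 1.66 in Raji, 0.730 in REH and 0.451 in NALM6. For CD70 the H3K4me3 signal was 1.339, 1.147 and 1.134 in untreated Raji and 0.349, 0.342 and 0.207 in untreated REH. It was listed at 0 in all 6 NALM6 libraries. The H3K4me2 signal of CD70 did not follow that order: it was 1.517, 1.711 and 1.685 in untreated REH and 0.836, 0.340 and 1.869 in untreated Raji, and the groups overlapped. In NALM6 it was called in 3 of 6 libraries with at most 0.637.

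Most of the CD70 signal came from the start 13 kb inside the annotated gene. In Raji that start had 1.07 to 1.36 of H3K4me3 in all 6 libraries, while the 5′ end had a peak in 5 libraries with at most 0.0804. In REH the inner start alone carried H3K4me3 and H3K4me2.

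CD58 and ICOSLG had both H3K4 marks in at least 4 of 6 libraries of every line. TNFRSF14 did for H3K4me2, but in NALM6 its H3K4me3 peak was called in 3 of 6 libraries. ICOSLG, the ligand of ICOS, ranked high in each line. Its median H3K4me3 start signal was 1.55 in Raji, 1.62 in NALM6 and 1.82 in REH, above 91.9%, 93.1% and 95.2% of the genes tested. Both replicate 1 libraries of NALM6 listed it at 0 for both marks. For H3K4me2 ICOSLG was 2.841, 3.061 and 3.311 in untreated REH and 1.925, 1.793 and 2.162 in untreated Raji. In the limma fit described below this difference did not pass (log2 Raji minus REH -0.62, adjusted p = 0.840). CD58 had H3K4me3 signals of 0.588 to 0.615 in the 6 REH libraries and 0.556 to 0.871 in the 6 Raji libraries. In NALM6 it was 0.579 and 0.519 in 2 untreated libraries and 0.349 and 0.645 in 2 treated ones, and it was listed at 0 in the other 2, of which 1 is the shallow library. For H3K4me2, CD58 reached 1.45 to 3.73 in Raji against 0.808 to 1.19 in REH and 0.452 to 0.997 in NALM6.

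TNFRSF14 had more H3K4me2 than H3K4me3 relative to the typical start of each mark. Its H3K4me2 signal was 2.04 to 5.33 in Raji, 1.82 to 2.27 in REH and 0.469 to 2.02 in NALM6. For H3K4me3 it was 0.409 to 0.921 in Raji, at most 0.366 in REH with a peak in 5 of 6 libraries, and at most 0.294 in NALM6 with a peak in 3.

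CD274 and PDCD1LG2, the ligands of PD-1, had little of either mark. CD274 had an H3K4me3 peak in 4 of 6 Raji libraries, at 0.089 and 0.076 untreated and 0.097 and 0.105 treated, and in none of NALM6 or REH. Its H3K4me2 peak was called in 1 untreated and 2 treated Raji libraries (0.201, 0.302 and 0.293) and in replicate 1 of both REH groups (0.209 and 0.173). PDCD1LG2 had an H3K4me2 start peak in 2 of 3 bryostatin Raji libraries (0.386 and 0.385) and in 0 of 3 untreated ones. An H3K4me3 peak was called in 1 bryostatin Raji library at 0.044. The treated Raji H3K4me2 libraries held 15.62, 18.793 and 16.114 M reads and the untreated ones 8.309, 6.697 and 13.865, and the part of depth in the PDCD1LG2 peaks was not tested. The gene window of PDCD1LG2, its body with 3 kb flanks, did hold a 560 bp H3K4me2 peak in 1 untreated Raji library.

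**Figure D3:**
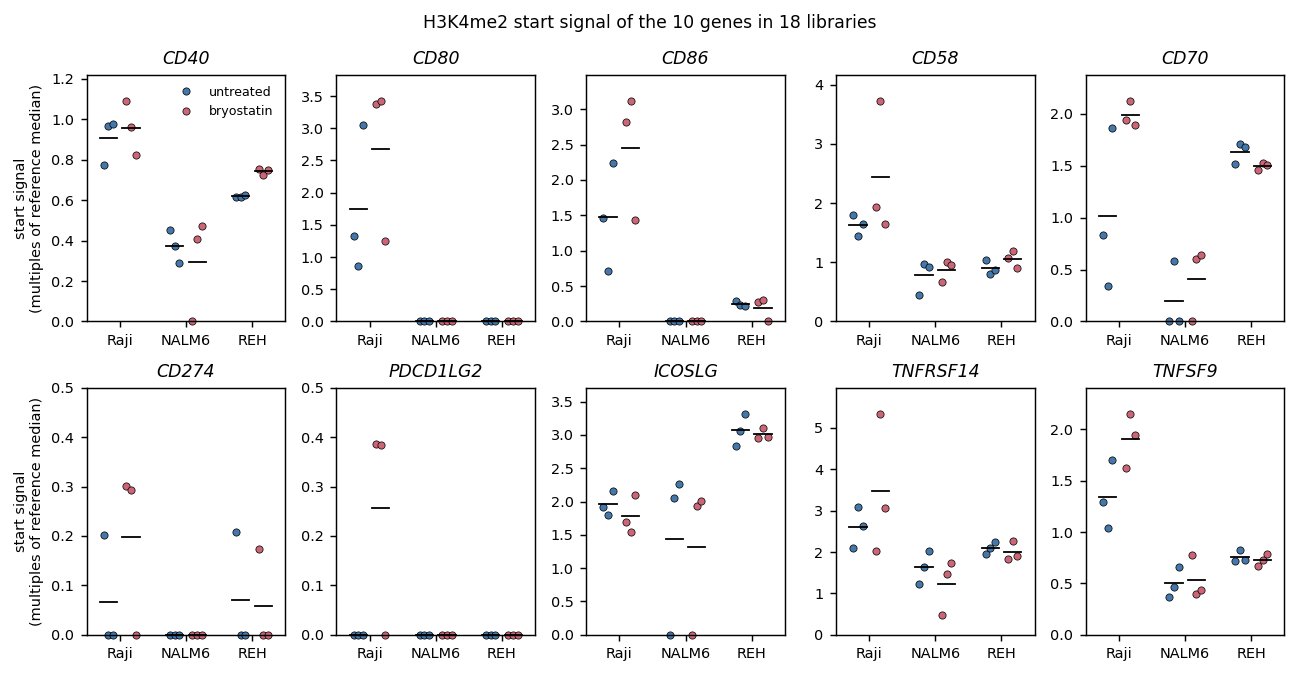
H3K4me2 start signal of each gene (vertical axis, multiples of the median of always-marked starts) by line and treatment. Each point is a library and each bar a mean of 3. CD80 is listed at 0 in NALM6 and REH, CD70 is at least 1.464 in REH, and TNFSF9 and TNFRSF14 have a peak in all 18 libraries.

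The lines were compared by limma on log2 of the start signal plus 0.1, over all genes with a peak in at least 3 of the 18 libraries of a mark, with Benjamini-Hochberg adjustment. Of the 10 genes 9 were tested for each mark, PDCD1LG2 being too rarely called. That filter lets in a gene through 1 line alone, so the counts describe the genes and were not read as support for a difference of the list. Among untreated libraries H3K4me3 was higher in Raji than in REH at 5 of the 9 (CD40, CD70, CD80, CD86 and TNFSF9) and lower at 0, beside 10.3% of all tested genes higher and 11.4% lower. The log2 difference was 3.45 ± 0.44 (SE, n = 3 and 3) for CD40, with adjusted p = 2.2e-05 in limma, and 2.94 ± 0.41 for TNFSF9 (adjusted p = 5.4e-05). As REH libraries at 0 enter both, their size depends on the pseudocount and other settings, with a range over the alternatives of 1.78 to 4.17 for CD40 and 1.65 to 3.41 for TNFSF9. For CD70 it was 1.73 ± 0.38 (adjusted p = 0.0032). CD80 and CD86 were listed at 0 in all 12 NALM6 and REH libraries of this mark and entered the test through Raji alone, so for them neither a fold nor a p is given. Over 29 alternatives the calls of CD40, CD70 and TNFSF9 were lost in 1 case, CD70 with the maximum signal of the peaks (adjusted p = 0.104). The adjusted p of CD40 ranged from 5.3e-08 to 0.00031 and that of TNFSF9 from 9.0e-08 to 0.0056.

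H3K4me3 was also higher in Raji than in NALM6 at 5 of the 9, the same genes as against REH, and lower at 0, beside 12.8% and 9.28% of all tested genes. The log2 difference was 3.68 ± 0.44 for CD40 (limma adjusted p = 1.3e-05) and 3.67 ± 0.41 for TNFSF9 (adjusted p = 6.1e-06), each with 2 of 3 NALM6 libraries at 0. Over the alternatives the size ran from 1.86 to 4.50 and from 1.89 to 4.46. CD70 was listed at 0 in NALM6 like CD80 and CD86, and no fold or p is given for these 3. TNFRSF14 differed by 1.62 ± 0.64 and missed the threshold with adjusted p = 0.088 (range over alternatives 0.0076 to 0.353). Between NALM6 and REH only CD70 passed, lower in NALM6 where it was listed at 0 (limma adjusted p = 0.0023, with a spread that comes from the other groups), beside 3.9% higher and 7.1% lower of all genes. With a 2 kb start window this CD70 call was lost (limma adjusted p = 0.117). 

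The treated libraries gave a second set of values for the same contrasts. H3K4me3 was higher in bryostatin-treated Raji than in treated REH at the same 5 genes, beside 10.1% of all genes higher and 11.4% lower. Against treated NALM6 it was higher at 6, with TNFRSF14 added (2.22 ± 0.64, limma adjusted p = 0.019), beside 18.7% higher and 9.2% lower. In treated NALM6 against REH only CD70 was lower (adjusted p = 0.043), beside 12.1% of all genes lower and 4.06% higher.

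For H3K4me2 fewer of the genes separated the lines. In untreated cells CD80, CD86 and TNFSF9 were higher in Raji than in REH, and none lower, beside 7.86% and 16.4% of all tested genes. CD80 was listed at 0 in every NALM6 and REH library of this mark and entered the test through Raji alone. Its calls in this paragraph, untreated or treated, were therefore not read as support, nor were those of CD86 against NALM6, where CD86 was listed at 0. TNFSF9 differed by 0.73 ± 0.24 with adjusted p = 0.038 in limma. That call did not hold under the maximum signal, where the difference was -0.23 with adjusted p = 0.535, and it was lost without any of the 3 untreated REH libraries (adjusted p = 0.105, 0.0626 and 0.102). Without Raji untreated replicate 1 or 3 it was lost too (adjusted p = 0.0837 and 0.167). CD86 differed by 2.07 ± 0.48 (adjusted p = 0.0044), with a range from 1.9e-05 to 0.174, the highest by the maximum signal. Against NALM6, CD58, CD80, CD86 and TNFSF9 were higher in Raji and none lower, beside 15.2% and 8.23%. The TNFSF9 difference of 1.27 ± 0.24 (adjusted p = 0.0010) was 0.11 by the maximum signal (adjusted p = 0.717) and 0.18 with signal shared out by the bases inside the window (adjusted p = 0.632). CD58 differed by 1.03 ± 0.29 (adjusted p = 0.019), by 0.66 and 0.53 under the same pair of alternatives (adjusted p = 0.0574 and 0.121) and by 0.65 without the replicate 1 libraries of NALM6 (adjusted p = 0.055), and also missed the threshold without Raji untreated replicate 1 or 3 (adjusted p = 0.070 and 0.0552) or NALM6 untreated replicate 1 (adjusted p = 0.0842). CD70 differed by 2.30 ± 0.80 and lay at the threshold (adjusted p = 0.052, range over alternatives 0.00016 to 0.20). In NALM6 against REH, CD70 was lower (-3.19 ± 0.80, adjusted p = 0.0097) and so was CD86, which was listed at 0 in NALM6 (adjusted p = 0.016), beside 16.5% of all genes lower and 2.93% higher. For CD70, untreated NALM6 replicate 3 was listed at 0 at the starts but had 3210 bp of peak in the gene window, at 0.765. With a 2 kb start window CD70 differed by -2.14 and missed the threshold (limma adjusted p = 0.061). Without REH untreated replicate 1 the adjusted p of CD86 was 0.059. In treated cells 4 genes were higher in Raji than in REH (CD58, CD80, CD86 and TNFSF9), beside 9.09% of all genes higher and 15.4% lower, and 7 were higher in Raji than in NALM6, all of the tested genes but CD274 and ICOSLG, beside 13.4% and 8.19%. Between treated NALM6 and REH 0 passed in limma and 3 had an unadjusted p under 0.05, beside 2.88% of all genes higher and 11.6% lower.

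The NALM6 replicate 1 libraries widened the spread that all lines share in this fit. Without both of them, more genes passed throughout: for Raji against REH in H3K4me2 17.1% of all genes were higher and 27.6% lower. Of the 9 genes 5 were then higher and 1 lower, with CD40 (0.44, limma adjusted p = 0.0053) and CD58 (0.76, adjusted p = 0.015) higher and ICOSLG lower (-0.68, adjusted p = 2.7e-04). For Raji against NALM6, CD40 (1.19, adjusted p = 5.7e-06) and CD70 (1.96, adjusted p = 0.0495) were then higher as well, beside 21.6% of all genes higher and 17.7% lower.

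The rest of the pathway was taken from a list of 34 receptors and other ligands, of which 15 were tested for H3K4me3 and 19 for H3K4me2. In untreated cells H3K4me3 was higher in Raji than in REH at CD48, NCR3LG1 and CD27 and lower at NECTIN2, while 11 did not pass. The shares over all tested genes were 10.3% higher and 11.4% lower. CD27, the receptor of CD70, had an H3K4me3 signal of 0.448 to 0.952 in Raji and was listed at 0 in all 12 other libraries. CD48, a ligand of CD244 and CD2, reached 0.669 to 1.04 in Raji and was listed at 0 elsewhere. CD27 and CD48 thus entered the H3K4me3 test through Raji alone. NCR3LG1, the NKp30 ligand B7-H6, reached 0.403 to 0.611 in Raji. NECTIN2, a ligand of TIGIT, was 0.329 to 0.507 in REH and at most 0.0120 in Raji. Against NALM6, 6 of the 15 were higher in Raji (CD48, LTA, TNF, LTB, NCR3LG1 and CD27) and 0 lower, beside 12.8% and 9.28% of all tested genes. LTA, TNF and LTB are neighbours that share long peaks, so they count as 1 locus at most. They were listed at 0 for H3K4me3 in all NALM6 libraries, and LTB reached 1.05 to 2.64 in REH.

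For H3K4me2 the list went both ways. Raji was above REH at PDCD1, TIGIT and CD27 and below it at TNFSF4, VSIR and LGALS9, with 13 of 19 not passing. The shares over all tested genes were 7.86% above and 16.4% below. PDCD1 and TIGIT had low H3K4me2 medians in Raji (0.187 and 0.307) and no H3K4me3 start peak in any line. Neither had an H3K4me2 start peak in NALM6 or REH, so both entered the test through Raji alone. Raji was above NALM6 at 8 of 19 and below it at TNFSF4 and VSIR, beside 15.2% and 8.23% of all tested genes. NALM6 was below REH at TNFSF10, LTA, TNF and LTB, beside 16.5% of all tested genes below and 2.93% above. TNFSF4 (OX40 ligand), VSIR (the checkpoint VISTA) and LGALS9 (galectin 9) had no H3K4me2 start peak in any Raji library, and their medians in REH were 0.532, 0.474 and 0.724.

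For the 2 genes with the widest range of line medians of H3K4me3, CD40 (1.55) and TNFSF9 (1.49), the genes of most like pattern were sought by Pearson r of the log2 start signal over the 18 libraries. For CD40 these were PTGER4 (r = 0.98), TOX (0.98) and CYP39A1 (0.97). For TNFSF9 they were ZNF860 (0.99), OSBPL10 (0.99) and SPIRE1 (0.99), of which the first and second share a peak. The points are 3 clusters of libraries by line, so r describes the split of Raji from the other lines. PTGER4 had a median of 2.33 in Raji, 0.0689 in NALM6 and 0.0985 in REH.

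Bryostatin was compared within each line and mark by limma on the log2 total signal of each region that all 6 libraries had, after subtracting every library's median region. None of the 28 tested regions of these genes passed at 0.05. In Raji 8 of 26 H3K4me2 regions and 9 of 14 H3K4me3 regions of these genes were tested. In REH it was 6 of 12 and 2 of 6, and in NALM6 3 of 8 and 0 of 6. The others lacked a peak in some library. Regions called in only some libraries, like the H3K4me2 start peak of PDCD1LG2 in Raji, were therefore not tested in this fit. Over the PDCD1LG2 gene window the mean H3K4me2 signal in Raji was 0.030 untreated and 0.575 treated. The groups overlapped there (exact two-sided permutation p = 0.4). Of all regions tested, 0% passed for H3K4me2 in Raji and NALM6, 1.45% for H3K4me2 in REH, 0.155% for H3K4me3 in Raji, 0% for H3K4me3 in NALM6 and 1.67% for H3K4me3 in REH. At an unadjusted p under 0.05 the counts of member regions were 2 of 8 and 1 of 9 in Raji, 1 of 6 and 1 of 2 in REH and 0 of 3 in NALM6, for H3K4me2 and H3K4me3 in that order where both were tested. Over all regions the shares were 6.72% and 5.65% in Raji, 9.88% and 10.5% in REH and 1.36% for H3K4me2 in NALM6.

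In Raji the largest H3K4me2 differences were at CD70 (0.36 ± 0.15, limma adjusted p = 0.718) and TNFSF9 (0.34 ± 0.14, adjusted p = 0.718). The summed H3K4me2 signal over CD70 and its flanks was 1.624, 0.874 and 1.869 untreated and 1.945, 2.470 and 1.892 treated. Over TNFSF9 it was 1.799, 1.329 and 1.699 untreated and 1.904, 2.146 and 1.945 treated. Treated libraries lay above all untreated ones at both genes, with ratios of means of 1.44 and 1.24 and an exact two-sided permutation p of 0.1, the smallest that 3 against 3 allows. Of all gene windows in Raji 5.24% were separated in this direction for H3K4me2 and 3.78% in the other. The median difference over the 8 H3K4me2 member regions in Raji was 0.22, beside -0.03 over all regions. The treated libraries were the deeper ones here, the part of depth was not tested, and neither gene was separated without centring. Without centring, the median of all Raji regions lay 0.24 higher in the treated libraries for H3K4me2 and 0.26 higher for H3K4me3.

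For H3K4me3 in Raji, CD86 at its second start differed by 0.53 ± 0.23 (limma adjusted p = 0.858) and at its 5′ end by -0.03 ± 0.37 (adjusted p = 0.998). CD58 differed by 0.28 ± 0.13 (adjusted p = 0.878), and its windows were separated, with 0.699, 0.727 and 0.556 untreated and 0.782, 0.871 and 0.739 treated (exact permutation p = 0.1). Beside it 4.82% of all Raji windows were separated upward and 5.95% downward. CD40 differed by 0.21 ± 0.10 and TNFSF9 by 0.19 ± 0.10 (adjusted p = 0.880 and 0.885). CD80 differed by -0.09 ± 0.14, and ICOSLG by 0.08 ± 0.08, CD70 by 0.07 ± 0.14 and TNFRSF14 by 0.06 ± 0.27.

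In REH the H3K4me3 region of ICOSLG was 1.461, 1.622 and 1.755 untreated and 1.879, 1.891 and 2.011 treated. Every treated library was above every untreated one, where 5.28% of all REH windows were separated upward and 6.9% downward (exact permutation p = 0.1). The log2 difference was 0.26 ± 0.08 with limma adjusted p = 0.188. Same-numbered REH libraries of this mark had correlations of 0.18, 0.23 and 0.31. These are of deviations from group means, which are not independent, so they do not establish a pairing. With the replicate number as a block, limma adjusted p was 0.0322. It was 0.0117 under quantile normalization, 0.00389 without untreated replicate 3 and up to 0.964 under the other alternatives. The block raised the calls over all regions from 157 to 305 for H3K4me2 in REH, from 121 to 202 for H3K4me3 in REH and from 14 to 132 for H3K4me3 in Raji, and no other region of these genes was among them. The H3K4me2 region of CD40 in REH was 0.618, 0.614 and 0.624 untreated and 0.755, 0.724 and 0.748 treated, again without overlap (0.23 ± 0.09, limma adjusted p = 0.353). Of all REH windows 6.24% were separated upward for H3K4me2 and 3.67% downward. By the peak maximum, neither REH gene nor CD58 in Raji was separated. CD70 in REH went the other way, at -0.16 ± 0.09 (adjusted p = 0.581). The 6 H3K4me2 member regions in REH had a median of -0.07, beside -0.02 over all regions.

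In NALM6 no member window was separated, beside 3.4% of windows upward and 3.83% downward for H3K4me2 and 1.13% and 2.62% for H3K4me3. The SE of the 3 tested H3K4me2 regions was 0.32 to 0.52, with TNFRSF14 at -0.54 ± 0.52, CD58 at 0.26 ± 0.38 and TNFSF9 at 0.12 ± 0.32. Differences of the size seen in Raji were not detectable at that spread.

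**Figure D4:**
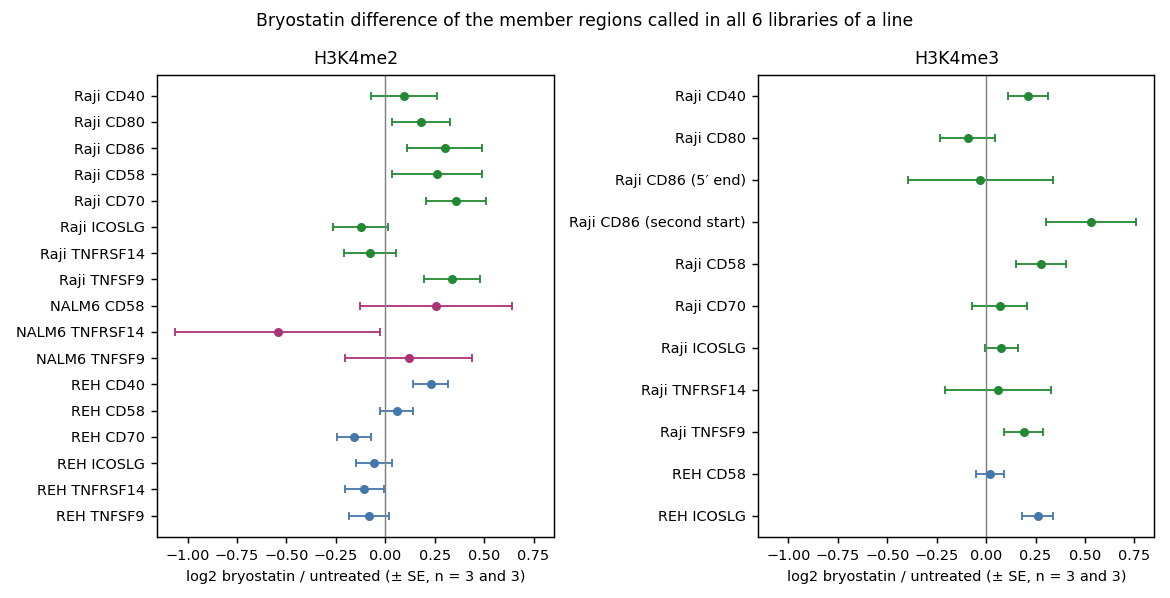
Log2 difference of bryostatin over untreated libraries for the tested regions of these genes, H3K4me2 on the left and H3K4me3 on the right. Points are limma estimates with n = 3 and 3, bars are ± 1 SE and colors are lines. The estimates lie between -0.54 and 0.53, and 0 of the 28 pass at an adjusted p of 0.05.

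Whether the response to bryostatin differed between lines was tested by an interaction term over the 18 libraries of a mark. For H3K4me2 and H3K4me3, 0 of the 9 genes passed in each of the 3 contrasts of lines, and 0 had an unadjusted p under 0.05 in limma. Of all genes 0.031% passed for Raji against REH, 0.108% for Raji against NALM6 and 0.186% for NALM6 against REH in H3K4me2, and 0.0169%, 0% and 0.0169% in H3K4me3. The lowest unadjusted p was 0.089, for H3K4me2 at CD86 in Raji against REH (1.24 ± 0.68). Of the pathway list 0 of 15 and 0 of 19 passed in these contrasts.

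H3K27me3 start peaks were few at these genes, as they were over all genes, and the libraries of this mark ranged from 590 to 102183 peaks. A start peak in at least 4 of 6 libraries was seen for 0 genes of Raji, 1 of NALM6 and 0 of REH, beside 4.19%, 9.4% and 13% of all genes. The gene was CD70 in NALM6. Its inner start had a peak of 2330 and 2340 bp in untreated replicates 2 and 3 and of 3170 and 1820 bp in treated replicates 2 and 3, and none in replicate 1 of either group. With an equal number of peaks per library the count was 0. In the H3K4me2 libraries of the same groups and numbers, 3 of 4 had a peak at this start, and in the H3K4me3 libraries none. In REH, where this start carried both H3K4 marks, H3K27me3 was called in none of 6 libraries.

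In Raji the second untreated replicate alone had H3K27me3 peaks at the starts of CD40, CD80, CD58, CD70, ICOSLG, TNFRSF14 and TNFSF9, of 2340 to 4990 bp. These are 7 of the 8 genes with both H3K4 marks in all 6 Raji libraries. The other 5 Raji libraries had 0 of the 10 genes. That library is the one with H3K27me3 at most active starts, so its peaks were not counted as H3K27me3 at these genes. The count of genes in at least 4 Raji libraries was 0 with and without it.

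CD40 had H3K27me3 next to it in REH. All 6 REH libraries had a peak in the flank beyond its 3′ end, of 41480, 12390 and 10120 bp untreated and 2760, 13080 and 12630 bp treated, and none had one at its start. In treated replicate 2 the peak reached into the last exon. The third replicates of Raji had short peaks in that flank (1060 and 500 bp). CD80 had H3K27me3 start peaks of 5470 and 320 bp in treated replicates 2 and 3 of NALM6, of which the third held 78872 short peaks (median 380 bp), and none in REH. CD86 was overlapped by 1 peak of 170 bp in that same library. CD274 and PDCD1LG2 had no H3K27me3 peak in their gene windows in any of the 18 libraries. In REH, CD80, CD86, CD274 and PDCD1LG2 thus had no called H3K4me3 and no called H3K27me3. TNFRSF14 had H3K27me3 peaks in its upstream flank in 3 NALM6 libraries, of which 1 touched the start window (310 bp, treated replicate 3), and TNFSF9 had a start peak of 490 bp in that library. ICOSLG had 1 of 2680 bp in untreated replicate 1 of REH.

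**Figure D5:**
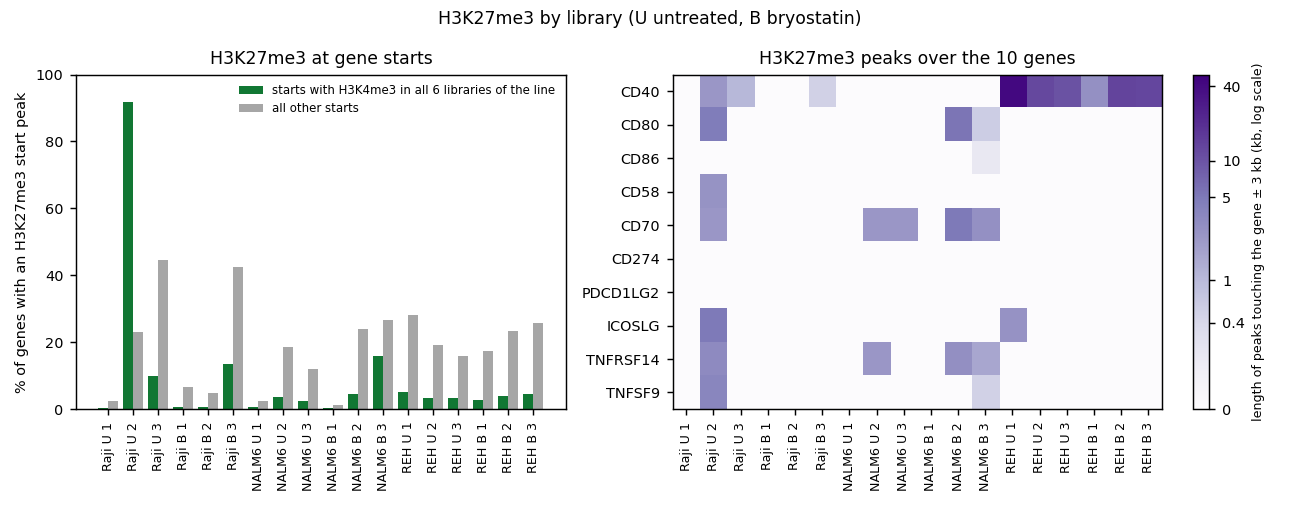
Left, the percentage of genes with an H3K27me3 start peak in each library, for starts with H3K4me3 in all 6 libraries of the line (green) and for all other starts (grey). Right, the length of H3K27me3 peaks touching each gene with 3 kb flanks (kb, log color scale). Untreated replicate 2 of Raji (Raji U 2) reaches 91.9% at active starts and holds 7 of the 10 genes, and the CD40 row is filled in all 6 REH libraries.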

How the data were processed

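The deposited files hold, per library, the SEACR stringent peaks with their total and maximum signal. Per the labels and the study's methods, the authors demultiplexed with bcl2fastq, trimmed with Trim Galore, aligned to hg38 with Bowtie2, scaled the coverage signal per library as RPKM and called peaks library by library. The authors compared treatments with DESeq2. Read counts were not used here, and the 18 IgG samples in the labels were not analysed here. The design text names H3K27me2 where the sample labels name H3K27me3, and the labels were followed. Whole-read steps of the signal gave the depth of 48 libraries.

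Peaks were joined to the starts of GENCODE 44 protein-coding genes (within 1 kb) and to gene bodies with 3 kb flanks. Start signals were divided by the library's median over genes called in all 18 libraries of the mark and taken as log2 of the value plus a pseudocount of 0.1, for genes with a peak in at least 3 of 18 libraries. limma 3.58.1 (R 4.3.3) with Benjamini-Hochberg adjustment at 0.05 was used in place of a count test, since the values are no counts, on all genes of a mark for lines and interactions and on the regions called in all 6 libraries of a line and mark for bryostatin. Gene windows were compared by an exact two-sided permutation test (scipy 1.17.1). Scripts were tested on simulated data. Other tools were Python 3.11.15, pandas 2.3.3 and numpy 2.4.6.

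The 10 genes were all named. From the list of 34 other genes those past the threshold were named, and for the 2 genes with the widest range of line medians the 3 genes of highest r. The members and lists were chosen with earlier results of these data known. Same-numbered libraries deviated together with r from -0.31 to 0.68 over 18 pairs. Every pair was over 0.1 in 5 of 6 sets of a line and mark (lowest 0.13), not in H3K4me2 of Raji. The pairing comes from the replicate numbers in the labels, and the fit without the block was the main one. Alternatives covered the pseudocount, filter, window, peak measure, normalization, block and each replicate left out.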

Additional observations from a re-analysis of the deposited data

How the results depend on the processing

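Over the alternatives, the limma differences at CD40 and TNFSF9 for H3K4me3 in Raji against either other line kept their direction and their side of the threshold. CD80 and CD86 were listed at 0 outside Raji and entered that test through Raji alone, so their calls were not read as stable. Of the differences past the threshold, 2 changed sign, and some that had not passed also changed sign under an alternative. TNFSF9 for H3K4me2 in untreated Raji against REH was -0.23 by the maximum signal, and CD86 for H3K4me2 in NALM6 against REH was 0.15 under quantile normalization. The cause was not tested.

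For counts of the 9 tested genes, Raji against REH in H3K4me2 (3) was 5 under quantile normalization, 6 without both NALM6 replicate 1 libraries and 1 when a peak in at least 9 of 18 libraries was asked for, and 2 to 4 with 1 replicate left out. That filter drops genes marked in Raji alone, and it also took Raji against REH and against NALM6 in H3K4me3 from 5 to 3 (5 to 6 with 1 replicate left out). Raji against NALM6 in H3K4me2 (4) was 2 by the maximum signal and 3 to 6 with 1 replicate left out. NALM6 against REH in H3K4me2 (2) was 1 with a pseudocount of 0.5, with a 2 kb window and under quantile normalization, 4 without both NALM6 replicate 1 libraries, and 1 to 3 with 1 replicate left out, the lowest without REH untreated replicate 1. In H3K4me3 (1) it was 0 with the 2 kb window and 1 to 2 with 1 replicate left out, the highest without REH untreated replicate 2. Without both NALM6 replicate 1 libraries the H3K4me2 shares of all tested genes moved too. They went from 7.86% higher and 16.4% lower to 17.1% and 27.6% for Raji against REH. For NALM6 against REH they went from 2.93% and 16.5% to 7.55% and 21.5%. No such shares are given for the other settings, so those counts describe the calling and not these genes alone.

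For bryostatin, the count of member regions in REH H3K4me3 (0) was 1 under quantile normalization and with the replicate block, and 0 to 1 with 1 replicate left out, the 1 being ICOSLG in each. The block changed no other call of a member region, and the cause was not tested. The block across the lines, an alternative chosen after seeing the data, added TNFRSF14 in H3K4me3 for Raji against NALM6 (adjusted p = 0.026). Over all regions, limma called 157 in REH H3K4me2 (305 with the block, 62 to 344 with 1 replicate left out), 121 in REH H3K4me3 (202, and 51 to 223) and 14 in Raji H3K4me3 (132, and 0 to 19).

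Separated windows went from 2 to 1 in Raji H3K4me2 by the maximum signal, to 0 with 10 kb flanks, to 0 without centring and to 2 to 5 with 1 replicate left out. By the maximum signal they went from 1 to 0 in Raji H3K4me3, REH H3K4me2 and REH H3K4me3, and ranged over 1 to 4, 1 to 3 and 1 to 3 with 1 replicate left out. In NALM6 they went from 0 to 3 for H3K4me2 and from 0 to 1 for H3K4me3 without both replicate 1 libraries, and over 0 to 1 with 1 left out. Smaller groups are separated more easily, and the shares of all windows with libraries left out were not computed. The higher counts with libraries left out were therefore not read as bryostatin differences. With an equal number of peaks per library, genes with a start peak in at least 4 of 6 libraries went from 5 to 3 in NALM6 H3K4me2, from 2 to 1 in NALM6 H3K4me3, from 4 to 2 in REH H3K4me3 and from 1 to 0 in NALM6 H3K27me3. With the start of the longest span alone, the last was 0 too. Shares of all genes were not computed under either setting. Without Raji untreated replicate 2, also added after seeing the data, Raji H3K27me3 stayed at 0.

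Depth limits the absence of peaks: a start without one is below the caller's threshold in that library, and for the 6 NALM6 replicate 1 libraries the depth is unknown.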
